A study of Mus musculus with 11 samples.

Results

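The integrin adhesion machinery of mouse embryonic stem (ES) cells was followed through 10 genes: Itgb1, Itga5, Itga6, Itgav, Itgb5, Vcl, Tln1, Ptk2, Pxn and Ilk. They were chosen by name, with earlier results of these data known, and each had a row in the bulk table of 12588 genes and a column in each of the 5 single-cell tables of 21926 to 23139 gene symbols. Integrins are receptors for the extracellular matrix made of 1 alpha and 1 beta chain. Inside the cell, talin (Tln1) binds the beta tail and switches the receptor on, and vinculin (Vcl) strengthens the link from talin to actin when the link is under load. Focal adhesion kinase (Ptk2) is a tyrosine kinase recruited to these sites, paxillin (Pxn) is a scaffold that it phosphorylates, and integrin-linked kinase (Ilk) is a pseudokinase that works in a complex with PINCH and parvin proteins. ES cells use integrins to hold laminin and fibronectin, and adhesion signalling through focal adhesion kinase is known to favour exit from the naive state.

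The bulk data were 6 libraries of about 1000 cells each of the reporter line Rex1GFPd2 in 2i/LIF, the medium that keeps ES cells naive: 3 from agarose microgels and 3 from tissue-culture plastic. The single-cell data were 5 inDrop libraries, in which unique molecular identifiers (UMIs) count transcripts: 3 of E14 wild-type cells (plastic with serum/LIF, plastic with 2i/LIF, and agarose microgels with serum/LIF) and 2 of cells labelled as having high or low plakoglobin (Jup) overexpression from the constitutive CAG promoter, grown on plastic with serum/LIF. The labels do not name the parent line of the overexpressing cells, or say whether they are clones. No label says that the bulk replicates came from separate cultures, so p-values measure only the spread between these samples, which may be technical.

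Bulk depth was 707718 to 866721 reads in gel and 637235 to 2583256 on plastic. Jup itself was at 36.7 CPM (UMIs scaled to a library total of 1000000) in wild-type serum/LIF, 46.7 in 2i/LIF, 38.1 in gel, 37.9 in the library labelled JupLow and 47.8 in the library labelled JupHigh. These intervals overlapped, so the labels are used here only as names of libraries. The single-cell libraries kept 725 cells in wild-type serum/LIF, 2889 in 2i/LIF, 112 in gel, 1200 in JupLow and 2153 in JupHigh, with medians of 1731.5 to 2465 UMIs per cell and 0 barcodes shared between any pair. All 8 ES cell markers had UMIs in 4 libraries and 7 in wild-type serum/LIF, whose table has no Sox2 column. ES markers summed to 1981 CPM in wild-type serum/LIF, 3333 in 2i/LIF, 2985 in gel, 2206 in JupLow and 3807 in JupHigh. With 1 library per condition, single-cell differences have no replicate check and no test. Their 95% intervals cover counting error only.

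In bulk 2i/LIF cultures the 10 genes spanned a wide range. Expressed per kilobase of exon, Itgb1, the beta chain shared by most ES cell integrins, was the most abundant on plastic at 16.6 ± 2.25 normalised reads (SD, n = 3). Itgb5 followed at 4.69, Ptk2 at 3.35, Itgav at 2.37 and Tln1 at 2.36. Itga6, the laminin receptor alpha chain, stood at 1.89, Itga5, the fibronectin receptor alpha chain, at 1.32, Ilk at 1.09, Vcl at 1.04 and Pxn at 0.132. In gel Itgb1 again led with 13.0 ± 3.10 (SD, n = 3) per kilobase, and Tln1 (3.86) and Itga6 (3.22) stood next. Itgb5 (3.16) and Ptk2 (3.02) were close behind them, within the spread of the libraries. In bulk, fewer cells of a type and less RNA per cell cannot be told apart.

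The gel and plastic comparison asks how encapsulation in a soft matrix changes these genes in naive medium. The talin gene Tln1 and the alpha chain gene Itga6 were higher in gel, and the other 4 tested members did not pass. Tln1 had values of 44.0, 39.3 and 30.2 in gel and 22.9, 22.3 and 24.3 on plastic. Every gel library therefore lay above every plastic library, with gel replicate 1 the highest. The log2 fold change was 0.68 (SE 0.22), and limma, with p-values adjusted by the Benjamini-Hochberg method over 7878 genes, gave an adjusted p of 0.0213. Itga6 had values of 39.5, 25.8 and 22.0 in gel and 16.6, 16.4 and 18.2 on plastic. The groups again did not overlap, and gel replicate 1 stood well above the other gel libraries. The log2 fold change was 0.71 (SE 0.26, limma adjusted p 0.0428). Neither call was firm: without gel replicate 1 the adjusted limma p was 0.209 for Itga6, at a log2 fold change of 0.47, and 0.0863 for Tln1, at 0.57, and leaving out gel replicate 2, plastic replicate 1 or plastic replicate 2 also ended both calls. Leaving out plastic replicate 3 ended that of Itga6 (adjusted limma p 0.0629). Without gel replicate 2 or any 1 of the plastic libraries, the log2 fold changes stayed near the full ones, at 0.68 to 0.77 for Itga6 and 0.65 to 0.72 for Tln1.

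Itgb1 was not among the called genes. Its values were 38.4, 60.2 and 60.5 in gel and 73.1, 57.1 and 72.9 on plastic, which overlap, and its log2 fold change was -0.37 (SE 0.19, limma adjusted p 0.138). Itgb5, the partner of the alpha-v chain at vitronectin, lay lower in every gel library, at 10.2, 9.82 and 13.7 against 15.4, 14.9 and 19.7. Its log2 fold change of -0.55 (SE 0.32) had an adjusted limma p of 0.177. Itgav was level between the groups, at 32.7, 27.0 and 17.9 in gel and 23.7, 27.0 and 25.8 on plastic (log2 fold change -0.020, adjusted limma p 0.958). Ptk2 also overlapped, at 31.6 to 39.3 in gel and 37.6 to 42.5 on plastic, with a log2 fold change of -0.15 (adjusted limma p 0.567).

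The remaining 4 members fell under the expression filter and were not tested. Itga5 had 11.3, 9.82 and 9.62 in gel against 7.48, 9.0 and 3.04 on plastic, so the gel libraries were above the plastic ones, narrowly at 9.62 against 9.0. It rested on 7 to 10 reads a library in gel and 2 to 23 on plastic. Without the filter limma gave Itga5 an adjusted p of 0.246 (log2 fold change 0.73, SE 0.44). Vcl rested on 5 to 21 reads a library and overlapped, at 5.64, 8.59 and 13.7 in gel and 6.65, 8.22 and 10.6 on plastic. Pxn rested on 0 to 5 reads and Ilk on 0 to 6, too few for a comparison.

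In all, 2 of the 6 tested members were called, both higher in gel, where limma called 36.9% of all tested genes (18.3% higher and 18.6% lower). Among the same 6 members the groups did not overlap for 3 (Tln1 and Itga6 with gel above, Itgb5 with gel below), against 49.5% of all tested genes (24.4% with gel above and 25.0% with gel below). The members' share is near the background. The plot of bulk values by library shows the separation of Tln1 and Itga6, with gel above, and the overlap of Itgb1, Itgav and Ptk2.

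**Figure D1:**
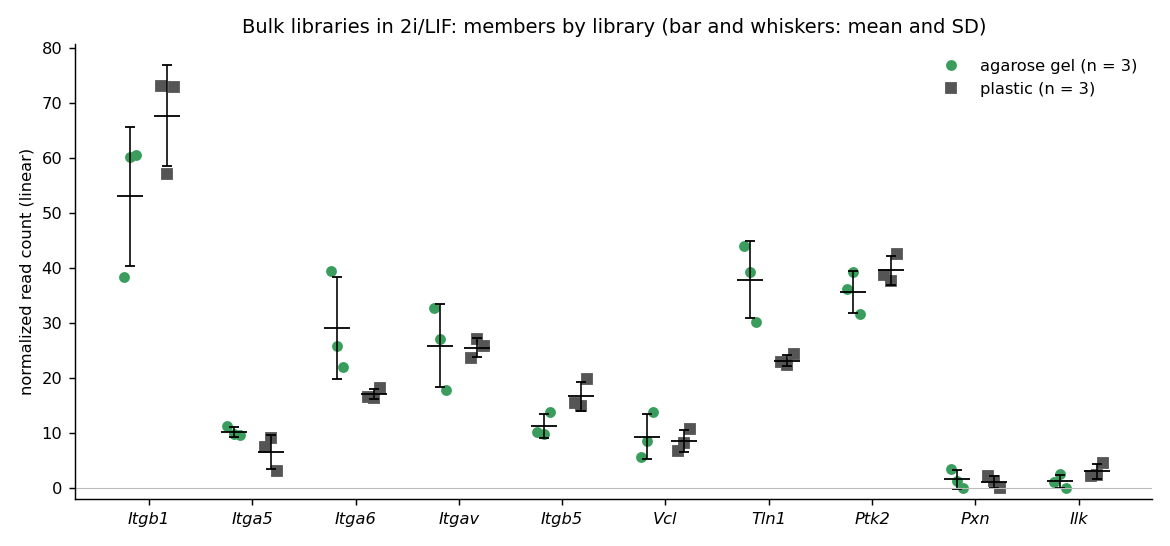
Normalised read count (linear axis) of each of the 10 genes in the 3 gel libraries (circles) and the 3 plastic libraries (squares) in 2i/LIF; bars and whiskers are means and SDs. Tln1 spans 30.2 to 44.0 in gel and 22.3 to 24.3 on plastic, while Itgb1 overlaps between the groups.

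The partners of these genes were taken from 7 pathway lists holding 84 genes, whose counts are to be read against the 36.9% of all tested genes called (18.3% higher). Actin linkers and scaffolds had 10 tested genes, of which 6 were called higher, 1 lower and 3 not, with a median log2 fold change of 0.55 against -0.022 over all tested genes. Actn1 (alpha-actinin 1, which crosslinks actin at adhesions) had 36.0 ± 7.26 in gel and 6.64 ± 2.09 on plastic (SD, n = 3), and rose by 2.38 on the log2 scale (SE 0.32, limma adjusted p 2.37e-05). Vasp, an actin elongation factor found at adhesions, rose by 1.32 on the log2 scale (SE 0.30, adjusted limma p 0.00250). The LIM protein gene Tes was the 1 that fell, from 67.4 ± 2.54 on plastic to 35.1 ± 8.45 in gel (SD, n = 3). Tes, Arhgef7, Spp1 and Rap1b were named after their values were seen.

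Among FAK, Src and Cas signalling genes, 3 of 10 tested were called, all higher in gel, with a median of 0.54. This share is near the background of called genes. The signalling adaptor Git1, which binds paxillin, rose by 2.21 (SE 0.45, adjusted limma p 0.000937), from 3.03 ± 0.293 on plastic to 16.5 ± 5.96 in gel (SD, n = 3). The kinase Src rose by 1.78 (SE 0.43, adjusted limma p 0.00336). The reads behind Git1 on plastic were few, at 2 to 8 a library. Arhgef7, the exchange factor that pairs with Git1, was the third, at 1.34. With edgeR's quasi-likelihood test on recovered reads 6 genes of this list were called in place of 3, all higher. That test called 3158 of all 7878 genes, 1622 of them higher.

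Matrix ligands of integrins had 6 tested genes, with 4 called higher and 1 lower, and a median of 0.63. The basement membrane linker nidogen 1 (Nid1) had 133 ± 10.5 in gel and 64.3 ± 6.14 on plastic (SD, n = 3), and rose by 1.04 (limma adjusted p 3.01e-05). The laminin chain Lama1, part of the main ligand of the Itga6 and Itgb1 receptor, rose by 0.99 (adjusted limma p 0.0117), a call that DESeq2 on recovered reads did not make. Spp1, which encodes osteopontin, was the gene that fell, by 0.38. None of the 5 tested genes of integrin activation and its brakes, and none of the 3 tested partners of Ilk, was called by limma, edgeR or DESeq2, with limma medians of -0.052 and -0.049. At an unadjusted p under 0.05 the only gene among these 8 was Rap1b (log2 fold change -0.32, adjusted limma p 0.0514). No gene of the lists of other alpha and other beta chains passed the expression filter, and of their 17 genes only Itga3, Itgae and Itgb7 were in the bulk table.

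In the single cells the members' levels depended strongly on the library. Itgb1 ran from 327 CPM (306 to 349) in JupLow and 281 (258 to 305) in wild-type serum/LIF, through 224 (168 to 294) in gel, to 91.9 (83.0 to 101) in JupHigh and 50.2 (45.5 to 55.3) in 2i/LIF. The gel interval overlaps that of wild-type serum/LIF but not that of JupLow, and the lowest libraries are separated from all others. Itga6 followed the same order in its outer places: 215 in JupLow, 162 in wild-type serum/LIF, 161 in gel, 148 in JupHigh and 86.3 in 2i/LIF. Its serum/LIF, gel and JupHigh intervals overlapped. Itgav was at 37.5 in JupLow, 30.2 in wild-type serum/LIF, 21.2 in gel, 14.4 in 2i/LIF and 9.51 in JupHigh, with the gel value resting on 5 UMIs.

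**Figure D2:**
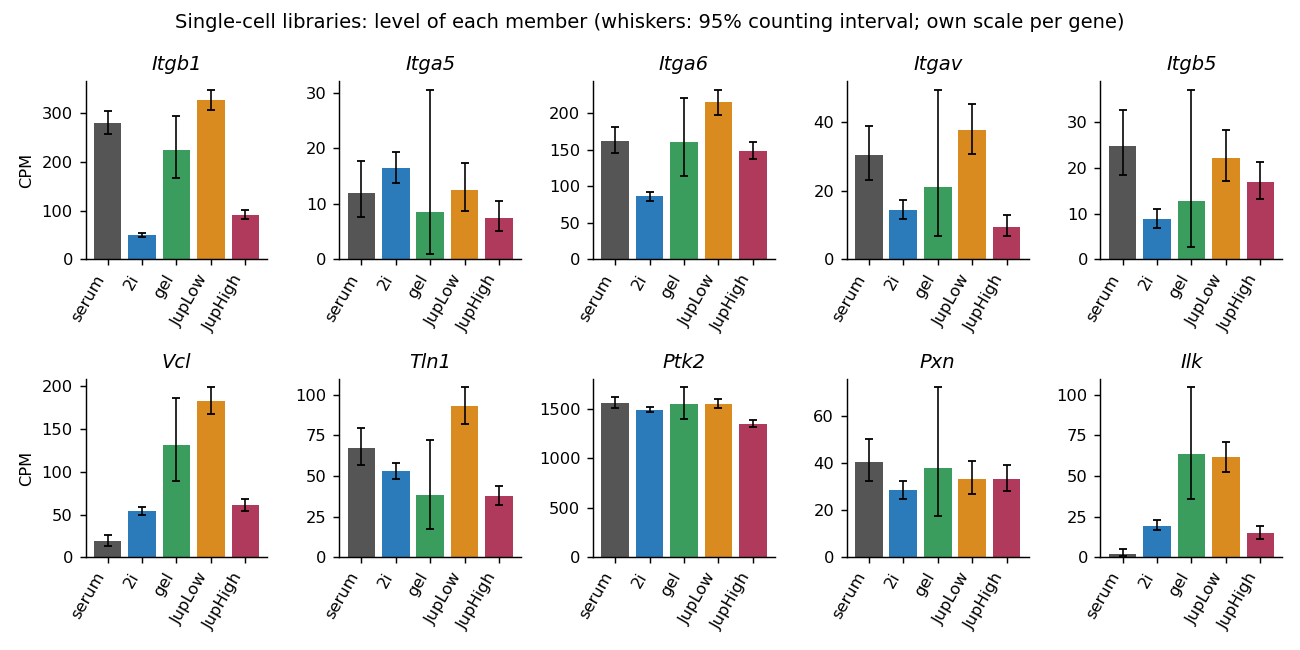
CPM (linear axes from 0, own scale per gene) of the 10 genes in the 5 single-cell libraries; serum, 2i and gel are the wild-type libraries, and whiskers are 95% counting intervals. Itgb1 is lowest in 2i/LIF (50.2) and JupHigh (91.9), while Ptk2 stays between 1347 and 1560.

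The cytoplasmic members were less uniform. Tln1 was at 92.8 CPM in JupLow, 67.4 in wild-type serum/LIF, 52.8 in 2i/LIF, 38.1 in gel and 37.6 in JupHigh, and the gel interval (17.4 to 72.3) overlapped all but that of JupLow. Pxn varied little, between 28.5 in 2i/LIF and 40.6 in wild-type serum/LIF, and all its intervals overlapped, those of 2i/LIF (25.0 to 32.4) and wild-type serum/LIF (32.3 to 50.4) only just. Ptk2 was nearly flat in cells, at 1560, 1488, 1550, 1552 and 1347 in wild-type serum/LIF, 2i/LIF, gel, JupLow and JupHigh. Levels of Ptk2 and Pxn in barcodes under 500 UMIs are given below.

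Ptk2 differed between the assays. In bulk 2i/LIF plastic it stood at 37.6 to 42.5 normalised reads, in libraries whose values sum to about 1000000, and in the 2i/LIF single cells at 1488 CPM. Itgb1, with 57.1 to 73.1 in the same bulk libraries and 50.2 CPM in the same single-cell library, showed no such gap. Other members were also higher in the single cells, which are of another line (E14, against Rex1GFPd2 in bulk): Pxn had 0 to 2.08 in bulk and 28.5 CPM, Ilk 2.08 to 4.55 and 19.4 CPM, Vcl 6.65 to 10.6 and 54.0 CPM, and Itga6 16.4 to 18.2 and 86.3 CPM. Tln1 (22.3 to 24.3 and 52.8 CPM) and Itga5 (3.04 to 9.0 and 16.4 CPM) were higher as well. Itgav (23.7 to 27.0 and 14.4 CPM) and Itgb5 (14.9 to 19.7 and 8.81 CPM) were lower there. Ptk2 spans 218179 bases of chromosome 15 (73205102 to 73423280, minus strand, GRCm38 with GENCODE M21), and 4 other annotated genes lie within or across this span, among them the processed pseudogene Gm7908 and a snoRNA. Whether their transcripts, or introns of Ptk2, were counted as Ptk2 was not tested.

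Wild-type cells in 2i/LIF and serum/LIF, both on plastic, were compared to ask how the medium sets these genes. All but 1 of the 5 integrin chains among the members were lower in 2i/LIF. Itgb1 was 5.59-fold lower (log2 ratio -2.48, 95% counting interval -2.67 to -2.30), Itgb5 was at 8.81 against 24.8 CPM (-1.49, -2.03 to -0.94), and Itgav at 14.4 against 30.2 (-1.07, -1.53 to -0.60). Itga6 was lower by less (-0.91, -1.10 to -0.72). Itga5 was the exception, with 16.4 against 11.9 CPM and an interval that includes 0 (0.47, -0.17 to 1.16). Of the adaptors, Pxn (-0.51, -0.88 to -0.13) and Tln1 (-0.35, -0.63 to -0.065) were slightly lower, and Ptk2 differed by -0.068.

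Counting genes that reached 20 CPM in at least 1 of the libraries compared, 4 of 8 members were past 2-fold, 3 lower and 1 higher, where 24.7% of all genes were past it (15.0% lower and 9.71% higher). The members' median log2 ratio was -0.71, against -0.031 over all genes. The gene that was higher was Vcl, at 54.0 CPM in 2i/LIF and 18.8 in serum/LIF (1.52, 1.04 to 2.04), and Ilk was higher too, at 19.4 against 1.98 (3.29, 1.91 to 5.19), under the level limit.

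Vcl and Ilk need a separate reading, because both share exon bases with genes on the opposite strand. Vcl (chromosome 14, 20929398 to 21033676, plus strand) meets exons of Ap3m1, and Ilk (chromosome 7, 105736592 to 105742925, plus strand) those of Rrp8 and Taf10. The wild-type serum/LIF library held 38 UMIs of Vcl and 4 of Ilk, the lowest level of the 5 libraries for both genes. Among all genes that share exon bases with another gene, 4.49% were at least 8-fold higher in 2i/LIF than in that library, against 0.876% of the others. The same shares were 4.06% and 0.326% for gel, 3.85% and 0.128% for JupLow, and 3.85% and 0.466% for JupHigh, each against that library. Between JupHigh and JupLow they were 0.213% and 0.304%. The shares at least 8-fold lower than in that library lay closer together: 7.27% of genes that share exon bases and 4.83% of the others in 2i/LIF, 2.48% and 1.65% in gel, 5.23% and 2.19% in JupLow, and 5.81% and 3.41% in JupHigh. Between JupHigh and JupLow they were 0.854% and 1.15%. For Vcl and Ilk, a true difference from wild-type serum/LIF and a difference in how overlapping genes were counted cannot be told apart. Tln1 and Itgav also share exon bases with another gene (Creb3 and Gm13684) and were not low in that library.

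Partner lists are set against the 15.0% of all genes at least 2-fold lower in this contrast. Their values are over all cells, including those with the contractile, endoderm or epithelial markers described below. Of 14 actin linkers and scaffolds at the level limit, 10 were at least 2-fold lower in 2i/LIF and 0 higher, with a median of -1.77. Of 5 integrin activation genes 0 were lower and 1 higher, and of 5 partners of Ilk 1 was lower and 0 higher. Of 10 matrix ligands, 5 were lower and 1 higher (median -0.95). Thbs1, at 121 CPM in serum/LIF, had no column in the 2i/LIF table and was left out of that count. Of 13 FAK, Src and Cas genes 2 were lower and 0 higher (median -0.41), a share near that of all genes. Of 4 other alpha chains at the level limit, Itga1, Itga3 and Itga9 were lower and Itga10 was higher, at 171 against 51.5 CPM (1.73, 1.45 to 2.04). Itga10 had no row in the bulk table, so it was seen in the single cells only. Itga1 was at 104 CPM in wild-type serum/LIF on plastic, but at 12.7 in gel, 7.99 in JupLow and 8.12 in JupHigh. Itga9 was at 52.5 there, with no UMI in gel, 3.47 in JupLow and 12.8 in JupHigh. Low levels of these genes were thus not particular to 2i/LIF. Itga3 was at 42.3 in gel, 153 in JupLow and 7.66 in JupHigh. Itga1, Itga9 and Itga10 were named after their values were seen. The 4 comparisons with wild-type serum/LIF share that 1 library, so they are not independent of each other.

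In wild-type serum/LIF, gel and plastic libraries were compared with the same question as in bulk. At 112 cells and 236195 UMIs the gel library limits what can be seen. Members other than Vcl and Ilk all had intervals that include 0: Itgb1 at 224 against 281 CPM (-0.32, -0.76 to 0.086), Itga6 at 161 against 162 (-0.010, -0.54 to 0.48) and Tln1 at 38.1 against 67.4 (-0.82, -1.98 to 0.14). With every deposited barcode the intervals excluded 0 for Tln1 (-1.25, -2.08 to -0.53) and Itgb1 (-0.42, -0.70 to -0.15). With barcodes of at least 500 UMIs they did so too, at -1.40 for Tln1 (-2.38 to -0.57) and -0.33 for Itgb1 (-0.66 to -0.022). Vcl (2.80) and Ilk (5.0) were the 2 of 9 members past 2-fold, both higher, where 20.4% of all genes were past it (7.21% higher and 13.2% lower). Both rest on the wild-type serum/LIF counts described above. Against the same background, 13 of 54 partner genes were at least 2-fold lower and 0 higher. Of 11 matrix ligands 7 were lower (median -1.47), and of 15 actin linkers and scaffolds 2 (median -0.62). These partner values are over all cells, and Lama1 and Col4a1 are also endoderm markers. Cells with the endoderm markers described below made up 21.1% of the plastic cells and 6.25% of the gel cells. For contractile markers the shares were 16.4% and 4.46%. How far such cells set the partner ratios was not tested. Of the genes named as higher in bulk gel, Lama1 (-2.58, -3.54 to -1.77), Nid1 (-1.15, -2.495 to -0.070) and Actn1 (-0.62, -1.09 to -0.18) were lower here, from 12, 7 and 45 gel UMIs. Vasp, Git1, Src and Arhgef7 had intervals that include 0.

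JupLow and wild type, both in serum/LIF on plastic, differed modestly in the members other than Vcl and Ilk. Itgb1 was 1.17-fold higher in JupLow (0.22, 0.069 to 0.37), Itga6 was higher by 0.41 (0.21 to 0.60) and Tln1 by 0.46 (0.16 to 0.77). Itga5, Itgav, Itgb5, Pxn and Ptk2 had intervals that include 0. The 2 of 9 members past 2-fold were again Vcl (3.28, 2.80 to 3.79) and Ilk (4.955, 3.57 to 6.85), both higher in JupLow. Of all genes 11.2% were past it (4.17% higher and 7.02% lower). With every deposited barcode in place of cells, the Itgb1 ratio was -0.054.

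JupHigh against wild type gave a different picture. Itgb1 was 3.05-fold lower in JupHigh (-1.61, -1.80 to -1.42) and Itgav 3.18-fold lower (-1.67, -2.28 to -1.07). Tln1 was lower by less (-0.84, -1.18 to -0.50), and Itga6 differed by -0.13 with an interval that includes 0 (-0.33 to 0.066). Ptk2 differed by -0.21, and Itga5 and Pxn had intervals that include 0. Itgb5 was at 16.9 against 24.8 CPM, with an interval that ends at 0, and Ilk at 14.9 against 1.98 CPM. Here 3 of 8 members were past 2-fold, 2 lower and, as the exception, Vcl higher, where 20.7% of all genes were past it (14.5% lower and 6.14% higher).

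JupHigh against JupLow does not involve the wild-type library. The adhesion genes were broadly lower in JupHigh. Itgb1 was at 91.9 against 327 CPM, 3.56-fold lower (-1.83, -2.0 to -1.66), and Itgav at 9.51 against 37.5, 3.95-fold lower (-1.98, -2.54 to -1.45). The linkers were lower as well: Vcl was at 60.8 against 183 (-1.59, -1.81 to -1.37) and Tln1 at 37.6 against 92.8 (-1.30, -1.59 to -1.02). Ilk was at 14.9 against 61.5 CPM, 4.14-fold lower (-2.05, -2.49 to -1.63). Vcl, Ilk, Tln1 and Itgav share exon bases with other genes. Whether transcripts of those genes were counted as theirs in JupHigh and JupLow was not tested.

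The other members differed less. Itga6 was at 148 against 215 CPM (-0.54, -0.70 to -0.37), and Ptk2 at 1347 against 1552 (-0.20, -0.26 to -0.15). Itga5 rested on 32 and 36 UMIs (-0.75, -1.49 to -0.025). Itgb5 (-0.39, -0.90 to 0.11) and Pxn (0.0022, -0.38 to 0.39) had intervals that include 0. In total 5 of 9 members at the level limit were at least 2-fold lower and 0 higher, where 11.0% of all genes were past 2-fold (8.4% lower and 2.63% higher). The median of the members was -1.30, against -0.13 over all genes.

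**Figure D3:**
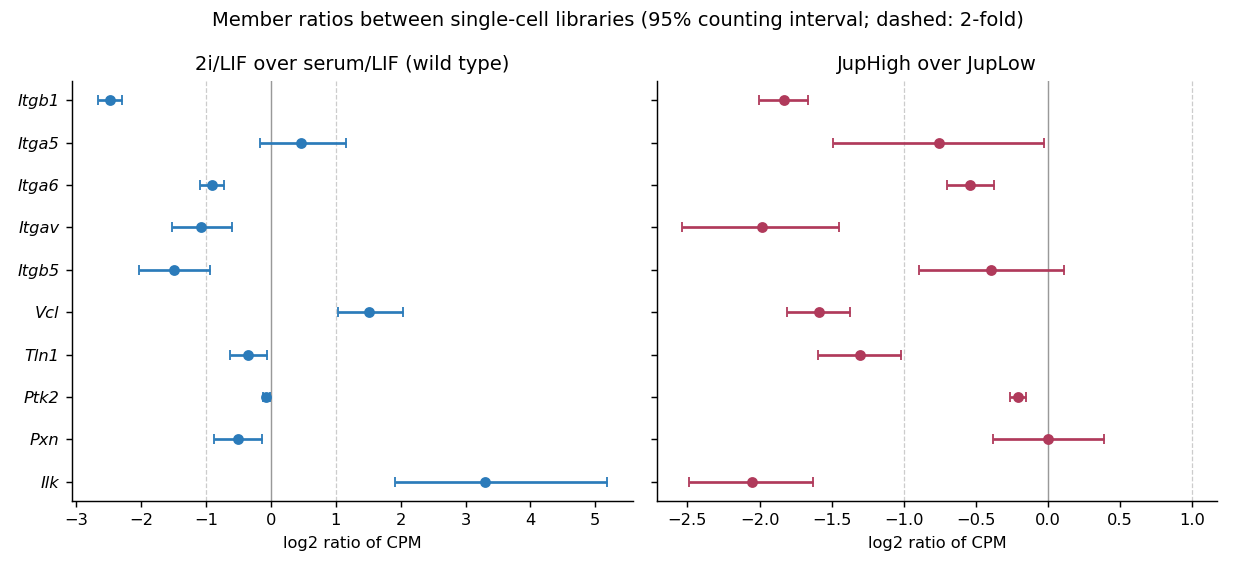
Log2 ratio of CPM of each gene with its 95% counting interval, for 2i/LIF over serum/LIF in wild type and for JupHigh over JupLow; dashed lines mark 2-fold. Itgb1 and Itgav are lower on both sides, and Vcl and Ilk are higher on the 2i/LIF side and lower on the JupHigh side.

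For Itgb1 the share of cells with a UMI gave the same order of libraries as the CPM. After each cell was thinned to 1000 UMIs (mean of 20 random draws), Itgb1 was seen in 23.4% of JupLow cells (exact binomial interval 21.1% to 25.9%) and 8.55% of JupHigh cells (7.40% to 9.81%), against 42.1% and 15.8% unthinned. It was seen in 21.2% of wild-type serum/LIF cells and 4.53% of 2i/LIF cells, against 41.2% and 12.9% unthinned. Free RNA carried Itgb1 too: barcodes under 500 UMIs, taken as near-empty, had 241 CPM in wild-type serum/LIF, 174 in JupLow, 69.1 in JupHigh and 148 in gel. The 2i/LIF table holds 1 such barcode, so its free RNA was not measured. Between JupLow and JupHigh the free RNA thus had the same direction as the cells. In each of these 4 libraries the level in cells was above that in the near-empty barcodes.

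For Itga6 the order differed: JupHigh had a thinned share of 13.3% and wild-type serum/LIF 12.4% (23.9% and 26.2% unthinned), the reverse of their CPM, so no order is read between them. For Tln1 the thinned shares were 8.58% in JupLow and 3.67% in JupHigh, with 17.2% and 7.25% unthinned. Its near-empty barcodes were at 62.5 and 50.1 CPM, the second from 29 UMIs, so the JupHigh level in cells, 37.6, did not exceed that of free RNA. For Vcl the thinned shares were 14.1% and 5.71%, with 27.8% and 11.3% unthinned, and the near-empty barcodes had 130 and 46.6 CPM. Ilk was seen in 60 of 1200 JupLow and 33 of 2153 JupHigh cells after thinning. JupHigh near-empty barcodes were at 20.7 CPM of Ilk, from 12 UMIs, against 14.9 (11.4 to 19.0) in cells. For Ptk2 the near-empty barcodes were above the cells in wild-type serum/LIF (1683 against 1560 CPM), gel (1715 against 1550) and JupHigh (1526 against 1347). In JupLow they were below (1206 against 1552). For Pxn they were above in wild-type serum/LIF (45.16 against 40.64) and JupHigh (37.99 against 33.4). They were below in gel (16.44 against 38.1) and JupLow (30.98 against 33.35). How far free RNA sets the levels of Ptk2 and Pxn in cells was not tested. No counting intervals are given for near-empty barcodes.

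The partner lists differed in JupHigh against JupLow, where 8.4% of all genes were at least 2-fold lower and 2.63% higher. Partner values are given here over all cells only, including those with the contractile, endoderm or epithelial markers described below. Of 16 actin linkers and scaffolds 12 were at least 2-fold lower and 0 higher, with a median of -1.50. The gene with the largest ratio was the paxillin relative Tgfb1i1, at 21.5 CPM in JupLow and 0.232 in JupHigh, where it had 1 UMI (log2 ratio -6.54, -11.86 to -4.01). Of 5 partners of Ilk, 1 was past 2-fold, namely Parva (alpha-parvin), at 47.9 against 3.71 CPM (-3.69, -4.54 to -2.94). Of 13 FAK, Src and Cas genes 4 were lower and 0 higher, led by the Src substrate Bcar1 (p130Cas) at 73.7 against 19.7 (-1.90, -2.28 to -1.53).

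Of 2 other alpha chains at the level limit, Itga3, a laminin receptor chain, was lower, at 153 against 7.66 CPM (-4.32, -4.88 to -3.81). The other, Itga10, which had no row in the bulk table, was higher, at 118 against 61.2 CPM (0.95, 0.70 to 1.21), within 2-fold. Of 5 activation genes 1 was lower, the small GTPase Rap1a at 48.3 against 20.9 (-1.21, -1.61 to -0.82). The 11 ligands were mixed, with 3 lower and 2 higher, and a median of -0.42. Thbs1 (thrombospondin 1) had the largest ratio, at 198 against 4.64 CPM (-5.42, -6.14 to -4.78). No other beta chain reached the level limit in any comparison.

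Markers of other cell types differed between the same libraries. The 7 contractile markers (such as Acta2 and Tagln) summed to 1047 CPM in wild-type serum/LIF, 31.8 in 2i/LIF, 254 in gel, 1544 in JupLow and 40.4 in JupHigh. Cnn1 had no UMI in 2i/LIF and Actg2 none in gel. The 7 epithelial markers (such as Krt8 and Krt18) summed to 849, 55.0, 237, 920 and 47.8 in the same order, and the 12 endoderm markers to 1837, 247, 428, 495 and 250. The 8 fibroblast markers summed to 43.1, 4.22, 12.7, 29.9 and 6.26 CPM in the same order, with Lum at 0 in every library. Cells with at least 3 contractile UMIs numbered 119 (16.4%) in wild-type serum/LIF, 0 in 2i/LIF, which allows up to 0.104% of its cells, 5 (4.46%) in gel, 301 (25.1%) in JupLow and 10 (0.464%) in JupHigh.

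Within JupLow, cells with contractile markers held more of most members than the other 899 cells. Itgb1 was at 534 CPM in the first and 240 in the second (log2 ratio 1.16, 0.97 to 1.34), Vcl at 312 against 128 (1.28, 1.03 to 1.54), and Tln1 at 164 against 62.7 (1.39, 1.03 to 1.75). Ilk had the widest gap, at 134 against 31.1 (2.11, 1.65 to 2.57), and Itgav was at 65.7 against 25.7 (1.36, 0.79 to 1.93). Itga6 (0.79, 0.55 to 1.02) and Ptk2 (0.12, 0.023 to 0.21) had smaller gaps. Itga5, Itgb5 and Pxn had intervals that include 0. Whether transcripts of the genes that overlap Vcl, Ilk, Tln1 and Itgav were counted in these cells was not tested. The cells with markers were deeper, with a median of 2586 UMIs against 2119. With markers and members both counted after thinning to 1000 UMIs, an alternative chosen after seeing the data, the log2 ratio pooled over 20 draws was 0.96 for Itgb1 (0.64 to 1.09 over the draws), 1.003 for Vcl (0.67 to 1.30), 1.16 for Tln1 (0.81 to 1.54) and 2.01 for Ilk (1.54 to 2.72).

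**Figure D4:**
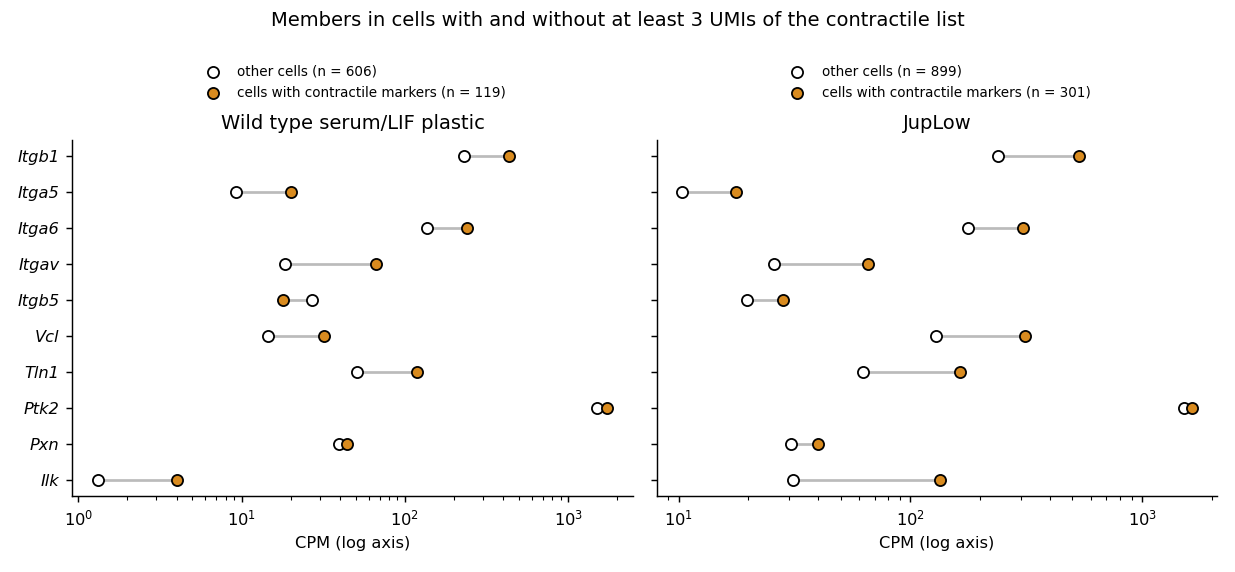
CPM (log axis) of each gene in cells with at least 3 UMIs of the contractile markers (filled) and in the other cells (open) of the wild-type serum/LIF and JupLow libraries. In JupLow, Itgb1 is at 534 against 240 and Ilk at 134 against 31.1, while Ptk2 is at 1641 against 1515.

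Wild-type serum/LIF showed the same for several genes. Its 119 cells with contractile markers had 433 CPM of Itgb1 against 230 in the others (0.91, 0.66 to 1.16), 66.2 against 18.4 of Itgav (1.84, 1.07 to 2.63) and 118 against 50.7 of Tln1 (1.22, 0.71 to 1.73). Thinned, these ratios were 0.80 for Itgb1 (0.35 to 1.15 over the draws), 1.72 for Itgav and 1.52 for Tln1, from about 50.1 cells with markers a draw. In those cells Itgav and Tln1 had means of 3.9 and 7.9 UMIs a draw. Vcl went from 1.15 (0.12 to 2.14) unthinned to 0.28 thinned, above 0 in 9 of 20 draws. In 2i/LIF, the 182 cells with endoderm markers had 58.1 CPM of Itgb1 against 49.3 in the others, with an interval that includes 0 (0.24, -0.22 to 0.67). These cells were much deeper, with a median of 4484 UMIs against 2290, and the endoderm marker Gata6 had no UMI in this library. The 2i/LIF split was not repeated after thinning, and whether its marked cells are endoderm was not tested. In JupLow the 147 cells with endoderm markers had 687 CPM of Itgb1 against 252 (1.45, 1.25 to 1.64), at a median of 3287 UMIs against 2081. Thinned, this ratio was 1.48 (1.16 to 1.83 over the draws). The marked groups overlap: 100 JupLow cells carried both contractile and endoderm markers, and 158 both contractile and epithelial ones.

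Between JupHigh and JupLow, the differences of all members but Pxn were smaller without these cells. When every cell with at least 3 UMIs of the contractile, endoderm or epithelial list was left out, 816 JupLow and 2112 JupHigh cells remained. This alternative was chosen after seeing the data. Itgb1 was then at 88.5 CPM in JupHigh and 229 in JupLow (-1.37, -1.58 to -1.17), and Itgav at 8.78 against 22.5 (-1.36, -2.04 to -0.68). These were the 2 of 8 members still past 2-fold, where 7.43% of all genes were. Vcl (-0.97, -1.24 to -0.70), Ilk (-0.92, -1.49 to -0.34), Tln1 (-0.58, -0.95 to -0.21) and Itga6 (-0.23, -0.43 to -0.029) remained lower and within 2-fold. For 2i/LIF against serum/LIF the same step gave -2.04 for Itgb1 (-2.28 to -1.80), -1.46 for Itgb5 and -0.78 for Itga6, while Itgav (-0.50, -1.18 to 0.24) and Tln1 (0.15, -0.26 to 0.59) had intervals that include 0. Vcl (2.15, from 1.52) and Itga5 (0.89, from 0.47) had larger ratios there. In gel over plastic it gave 0.099 for Itgb1 (-0.41 to 0.57), 0.22 for Itga5 (-3.01 to 2.45, from 2 gel UMIs) and -0.042 for Tln1 (-1.25 to 0.99). Against wild type, Itgb1 (0.18, -0.055 to 0.42), Itga6 (0.25, -0.020 to 0.53) and Tln1 (0.25, -0.24 to 0.75) in JupLow and Tln1 (-0.34, -0.79 to 0.14) and Itgb5 (-0.47, -1.13 to 0.23) in JupHigh then had intervals that include 0. So did Itga5 in JupHigh over JupLow (-0.38, -1.25 to 0.54) and Ptk2 in 2i/LIF (-0.0076, -0.081 to 0.067).

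The upstream sequences of members that were lower together in JupHigh are shown for the beta chain and the linkers, because these 3 had the most UMIs in JupLow among the 5 members past 2-fold there. RefSeq tables (GRCm38.p6) held a promoter for 7 of the 10 members, and the 250 bases before the start are printed 5′ to 3′ on the gene's strand: Itgb1 at chr8:128685404-128685653 (plus), Vcl at chr14:20929148-20929397 (plus) and Tln1 at chr4:43562584-43562833 (minus). The starts are those of RefSeq, and the GENCODE M21 gene of Tln1 reaches to position 43562691, so part of its printed window lies within that gene. Capitals mark matches, on either strand, to the motifs named below.
Itgb1: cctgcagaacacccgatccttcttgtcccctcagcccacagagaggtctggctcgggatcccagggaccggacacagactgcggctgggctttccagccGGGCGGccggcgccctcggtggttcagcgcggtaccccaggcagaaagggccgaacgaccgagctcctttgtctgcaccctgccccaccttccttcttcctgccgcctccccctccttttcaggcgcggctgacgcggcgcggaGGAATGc
Vcl: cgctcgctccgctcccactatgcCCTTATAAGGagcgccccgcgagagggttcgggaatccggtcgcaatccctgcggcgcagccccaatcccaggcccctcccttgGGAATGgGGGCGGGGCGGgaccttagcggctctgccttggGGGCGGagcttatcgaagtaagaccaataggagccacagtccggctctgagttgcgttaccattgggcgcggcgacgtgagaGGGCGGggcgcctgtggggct
Tln1: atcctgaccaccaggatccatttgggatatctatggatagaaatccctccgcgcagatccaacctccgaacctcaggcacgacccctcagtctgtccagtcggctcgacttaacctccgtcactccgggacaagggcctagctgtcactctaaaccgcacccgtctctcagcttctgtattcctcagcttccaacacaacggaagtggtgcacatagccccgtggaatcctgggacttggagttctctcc
The motifs searched were GGGCGG (SP1), GGAATG (TEAD), TGANTCA (AP-1) and the CArG box of serum response factor. Among 32851 promoters of the same length, 32.7% held the SP1 motif, 12.6% the TEAD motif, 6.75% the AP-1 motif and 1.47% a CArG box. The Itgb1 window held 1 SP1 and 1 TEAD match, and the Vcl window 4 SP1 matches of which 2 overlap, 1 TEAD match and 1 CArG box. The Tln1 window held none of the 4 motifs, and neither did that of Itgav or of the first of 2 listed Ilk starts. The window of the second Ilk start held 3 SP1 matches, that of Itgb5 held 3 and that of Itga5 held 2. Matches are descriptions of these letters and say nothing of binding.

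Genes whose profile was most like the members' were sought by the root mean square difference of centred log2 levels. Over the 6 bulk libraries and 7872 candidates, the nearest to the mean of the 6 tested members were Smim15, Ndufs3, Rrp8, Uap1l1 and Zfand5, at 0.026 to 0.049. These genes are nearly level between gel and plastic, as is the members' mean. Over the 5 single-cell libraries and 4719 candidates, the nearest to the mean of Itgb1, Itga6, Tln1, Ptk2 and Pxn, the members at 20 CPM or more in every library, were Akap9, Septin7, Sptan1, Mtpn and Tmx1, at 0.043 to 0.067. Septin7, for example, was at 151 CPM in wild-type serum/LIF, 80.8 in 2i/LIF, 131 in gel, 180 in JupLow and 94.9 in JupHigh. Like the members' mean, it was highest in JupLow and lowest in 2i/LIF.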

How the data were processed

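The submitters' processing notes name FastQC, STAR, featureCounts, DESeq2 and Scanpy and the builds mm10 and GRCm38, without versions and without tying a tool to a file. The bulk values are deposited by the authors as a signal: from the values, whole read counts divided by 1 factor per library, and 100% came out whole within 0.01 reads. The single-cell values are deposited as raw UMI counts per gene and barcode. Strand use in counting is not given in the sources used here.

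Bulk groups were compared with limma 3.58.1 (R 4.3.3) with an intensity trend on log2(value + 0.5), after edgeR's expression filter on recovered reads, with Benjamini-Hochberg adjustment at 0.05. Fold changes on that scale understate low genes. edgeR 4.0.16 and DESeq2 1.42.0 were alternatives, and the fit was tested on simulated data. The bulk columns marked both gel and plastic were read as plastic, and the second plastic library was numbered by its title.

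Cells are barcodes of 1000 UMIs or more, no doublet caller was run, and 1 alternative dropped those above 3 times the median. Barcodes with 8 or more G at each end, 1 incomplete line of the gel table (1504 UMIs) and nameless columns (0.00509% to 0.499% of UMIs) were left out. UMI sums per library were scaled to CPM, with exact Poisson intervals for levels and exact conditional binomial intervals for ratios at 95%. Thinning to 1000 UMIs per cell was drawn 20 times at random and averaged. Ranges over the draws show the spread of the draws only and leave out counting error. A floor of 3 counts gave the limit for a count of 0. A gene entered a 2-fold count if it had a column for both libraries compared and reached 20 CPM in at least 1 of them. Positions and overlaps come from GENCODE M21 (GRCm38).

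Named genes were all 10 members, at most 2 called genes per pathway list in bulk (largest fold change, groups apart, mean at least 5), at most 1 per list in JupHigh over JupLow, and the 5 nearest profiles per assay. Members and lists were chosen with earlier results of these data known, and Lama1 and Col4a1 stand in both the ligand and the endoderm list.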

Additional observations from a re-analysis of the deposited data

Results flagged for a closer look

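Some effects had opposite signs in parallel comparisons, and none of these differences was tested. Every bulk gel library in 2i/LIF lay above every plastic library for Itga5, Itga6 and Tln1, though Itga5 was under the expression filter at 2 to 23 reads a library. The single-cell log2 ratio of gel to plastic in serum/LIF was -0.49 for Itga5 (counting interval -3.62 to 1.52), -0.010 for Itga6 (-0.54 to 0.48) and -0.82 for Tln1 (-1.98 to 0.14). All of these intervals include 0 (that of Tln1 excludes 0 with every deposited barcode, at -1.25, -2.08 to -0.53), and line, medium and assay differ along with the sign. Without cells of the contractile, endoderm or epithelial list the ratios were 0.22 for Itga5 (-3.01 to 2.45), -0.095 for Itga6 and -0.042 for Tln1. Both Itga5 ratios rest on 2 gel UMIs, so their signs are not read. Among the partners, Lama1, Nid1 and Actn1 rose in bulk gel, by 0.99, 1.04 and 2.38. Their single-cell ratios of gel to plastic were -2.58, -1.15 and -0.62, with counting intervals below 0. These ratios are over all cells, including those of the 3 marker lists, and Lama1 is itself an endoderm marker.

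Against the shared wild-type serum/LIF library, Itgb1 was higher in JupLow (0.22) and lower in JupHigh (-1.61), and Tln1 was higher in JupLow (0.46) and lower in JupHigh (-0.84). The intervals of these 4 ratios exclude 0 for counting error, with 1 library per line. Without cells of the contractile, endoderm or epithelial list they include 0 for Itgb1 in JupLow (0.18, -0.055 to 0.42) and for Tln1 in JupLow (0.25, -0.24 to 0.75) and JupHigh (-0.34, -0.79 to 0.14), while Itgb1 in JupHigh stays below 0 (-1.19, -1.43 to -0.95).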

How the results depend on the processing

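The bulk count of 2 called members was 1 with no expression filter, with DESeq2 on recovered reads and with quantile normalization. It was 0 after thinning to the shallowest library or with a log2 fold change of at least 1. Of all tested genes, 2906 of 7878 were called in the main fit, 2965 of 12583 with no filter and 2188 of 7878 with DESeq2. Quantile normalization gave 2870 of 7878 and thinning 2387 of 7295. When 1 library was left out, 2361 to 2833 of all genes were called and the member count lay between 0 and 2. Without gel replicate 1, gel replicate 2, plastic replicate 1 or plastic replicate 2 it was 0, and without plastic replicate 3 it was 1. Same-numbered gel and plastic libraries did not deviate together (r = -0.052, 0.016 and 0.024), and a replicate block left the count at 2. The count of pathway genes called, 15 of 34 tested (13 higher), lay between 10 and 19 in the alternatives run. It was 19 of 34 with edgeR, which called 3158 of all 7878 genes. After thinning it was 10 of 30 (8 higher). With at least 10 reads in all 6 libraries it was 10 of 24 (7 higher), where 2494 of all 6328 genes were called.

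In single cells, 2i/LIF over serum/LIF had 2 members past 2-fold at 50 CPM or more, in place of 4. Gel over plastic had 4, in place of 2, with barcodes of at least 500 UMIs or at 1.5-fold. The share of all genes under these rules is not given for either comparison. The changed counts are therefore not read as a result about the members. JupHigh over JupLow had 2, in place of 5, without cells of the endoderm, contractile or epithelial list. The Itgb1 ratio by endoderm markers in wild-type serum/LIF was 0.76 at 2 UMIs and 0.79 after thinning (0.19 to 1.17 over 20 draws), in place of 1.04, and by contractile markers in JupLow 0.96 after thinning, in place of 1.16. Of 449 alternatives for single ratios, 405 stayed within the counting interval, 41 moved beyond it and 3 changed sign from a main interval that excludes 0: Itgb1 in JupLow over wild type to -0.054 with every barcode, Ptk2 in 2i/LIF over serum/LIF to 0.068 with TMM factors, and Tln1 there to 0.058 without contractile-marker cells. Ratios whose main interval includes 0 changed sign too, such as Itga6 in JupHigh over wild type, from -0.13 to 0.14 without endoderm-marker cells and 0.067 with every barcode. The cause was not tested. Depth limits Itga5, Vcl, Pxn and Ilk in bulk and every gene in the gel single-cell library.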
